A study of Mus musculus with 2 samples.

Results

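The genes described here encode the protease OMA1, its substrate OPA1, the other proteases of the mitochondrial inner membrane and the prohibitin-type scaffolds that hold them. They were a list of 10 genes, and a gene was measured where at least 1 probe set of the array carried its symbol alone. This held for 9 of the 10, out of 19938 genes in all: Oma1, Opa1, Yme1l1, Afg3l2, Afg3l1, Spg7, Parl, Phb2 and Stoml2. Phb, the partner subunit of Phb2, was not measured by this rule, because the 2 probe sets with its symbol also carry that of another gene. The mice were 24 weeks old and had been on a high-fat diet for 20 weeks, and RNA came from their white adipose tissue, the fat that stores energy as triglyceride. The arrays were Affymetrix Mouse Gene 1.0 ST, whose probes are spread over the exons of a transcript. The group Oma1_WT was 1 array labelled as a control mouse, and the group Oma1_KO was 1 array labelled as an Oma1-deficient mouse. Neither the strain, the fat depot, the form of the disrupted allele nor whether several mice were pooled is given in the labels. With 1 array per group there was no replicate check and no test of the genotype, and the precision of all values is limited by the 2 arrays.

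As background, OMA1 is a zinc metalloprotease that is quiet in healthy mitochondria and becomes active when the membrane potential is lost. It then cuts long forms of OPA1, a dynamin-like GTPase that fuses inner membranes and shapes cristae, and so stops fusion. A related route runs from OMA1 through its substrate DELE1 to the kinase HRI and the integrated stress response. YME1L1, the i-AAA protease, cuts OPA1 at another site under normal conditions. OMA1 acts on the protein, so a transcript array reads the amount of each mRNA and not the cleavage of OPA1.

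The deposited values were probe set intensities on a linear scale. Differences are given as log2(intensity + 1) in the array labelled Oma1_KO minus that in the array labelled Oma1_WT. Genes were compared with the 11393 genes whose mean over the 2 arrays reached an intensity of 83, the median of all probe sets. All 9 measured members passed this filter. Among these 11393 genes the median difference was -0.06, and the 5th and 95th percentiles were -0.43 and 0.32. The SD between probe sets of the same gene was 0.17 on this log2 scale, from 545 genes with exactly 2 probe sets. The 2 values of such a gene lay a median of 0.11 apart. This SD shows how far probe sets disagree when they read the same pair of RNAs, and it holds nothing of the spread between animals.

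The members differed little between the arrays. The differences of the 9 genes ran from -0.27 for Oma1 to 0.09 for Stoml2, with a median of -0.10. Of the 9 members 7 were lower and 2 higher in the array labelled Oma1_KO, which became 6 and 3 when differences were centred on the median of all genes. Among all 11393 genes 62.3% were lower. Only Oma1 reached 1.2-fold, on the lower side, against 14.6% of all genes lower and 7.13% higher by that size. After centring on the median of all genes, 1095 genes were at least 1.2-fold lower and 1244 higher, and after quantile normalisation 1187 and 1094. Of the 9 members 0 reached 1.5-fold in either direction, a size that 2.97% of all genes reached, 1.74% lower and 1.23% higher. The share of all genes past 2-fold was 0.246% lower and 0.272% higher, and again 0 members were among them. All 9 lay between the 5th and the 95th percentile of all genes, and 7 lay between the 25th and the 75th, at -0.18 and 0.07.

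**Figure D1:**
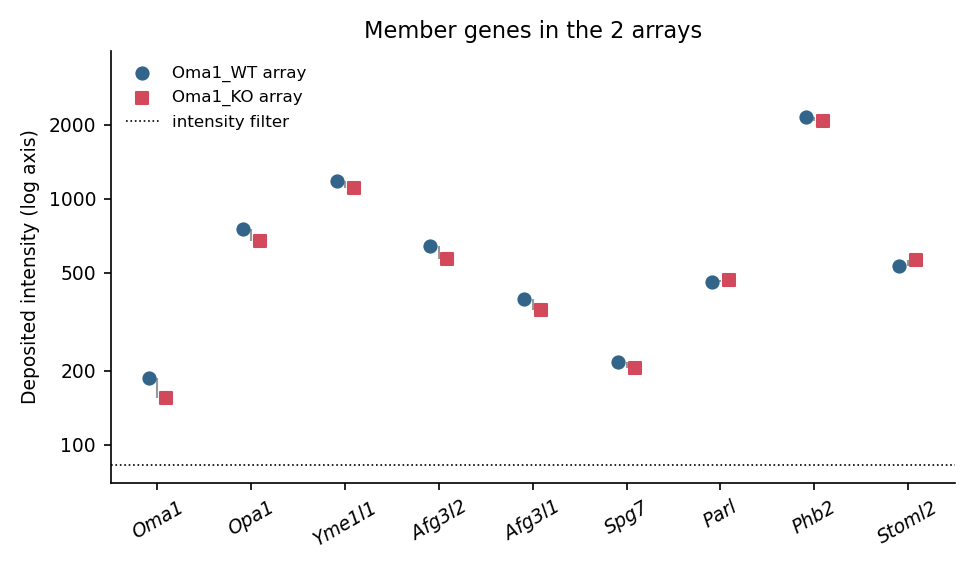
Deposited intensity (log axis) of the 9 measured member genes in the array labelled Oma1_WT (circles) and the array labelled Oma1_KO (squares), with the intensity filter of 83 as a dotted line. Each group is 1 array, so there are no error bars. The pairs of points lie close together, the widest gap being that of Oma1 at 187 and 155, and levels of different genes cannot be compared because each probe set has its own response.

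Oma1, the targeted gene, read an intensity of 187 in the array labelled Oma1_WT and 155 in the array labelled Oma1_KO. The log2 difference of -0.27 was 1.59 times the SD between probe sets, and 1594 of the 11393 genes had a lower difference. The signal in the array labelled Oma1_KO was above the intensity filter. Oma1 had 1 probe set, and the labels do not say which part of the gene was disrupted, so this reading does not check the genotype and the labels are taken as given. The difference was between -0.27 and -0.21 under the 6 settings of scaling, probe set choice and pseudocount. It was under 1.2-fold after quantile normalisation, after a loess correction against intensity, after centring and with a pseudocount of 16.

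Opa1, the substrate, read 757 and 674 in the arrays labelled Oma1_WT and Oma1_KO. Its difference of -0.17 was 0.99 times the SD between probe sets, and 27.9% of all genes were lower. Opa1 and Oma1 therefore lay on the same side, with differences 0.10 apart, less than an SD of 0.24 for such a gap. That SD was calculated from the 0.17 between probe sets of the same gene. It is not a spread measured between genes. The 1 Opa1 probe set summarises the gene and does not resolve its splice forms, which differ in the cleavage sites they carry.

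Yme1l1, the protease that shares Opa1 as a substrate with OMA1, read 1187 and 1105. Its difference of -0.10 was the middle value of the 9 members, and it was 0.17 above that of Oma1. Thus the transcript of the other OPA1-cutting protease was not higher where Oma1 was labelled deficient, by any of the 6 settings, which ran from -0.10 to -0.04. With 1 array per group a change of this size could not be detected.

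The m-AAA protease of the matrix side is built from Afg3l2, Afg3l1 and Spg7 subunits, which process mitochondrial ribosomal and other inner-membrane proteins and, in mouse, include an active Afg3l1. Afg3l2 read 645 and 572, a difference of -0.17. Afg3l1 read 393 and 352, a difference of -0.16, and so was within 0.02 of Afg3l2. Spg7, which encodes paraplegin, read 217 and 206, a difference of -0.07. All 3 subunits were lower under every scaling that was tried, but Spg7 was as close to no difference as -0.01 after quantile normalisation. The 3 differences lay within a range of 0.10, below the SD of 0.17 between probe sets.

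Parl, the rhomboid serine protease that cuts PINK1 and PGAM5, had 2 probe sets. The first read 531 and 525, and the other 398 and 419. Their differences of -0.02 and 0.07 had opposite signs, so Parl had a mean of 0.03 and a direction that depended on the probe set. With the brighter probe set alone it was -0.02, and it was 0.10 after the loess correction.

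The scaffolds differed in sign. Phb2, a prohibitin that forms ring complexes with Phb around the m-AAA protease, read 2147 and 2067. Its difference of -0.05 was within 0.01 of the median of all genes, and it turned to 0.01 when differences were centred on that median. Stoml2, a stomatin-like protein that binds cardiolipin and gathers PARL and YME1L1 into a complex, read 532 and 565. Its difference of 0.09 was the highest of the members, and it was higher under all 6 settings, at 0.08 to 0.16. Of all genes 77.7% had a lower difference than Stoml2. Stoml2 and Oma1, the ends of the members' range, lay 0.36 apart, or 1.48 times the SD of 0.24 calculated from probe sets of the same gene. Stoml2 and Yme1l1, whose products share that complex, lay 0.19 apart, less than that SD.

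**Figure D2:**
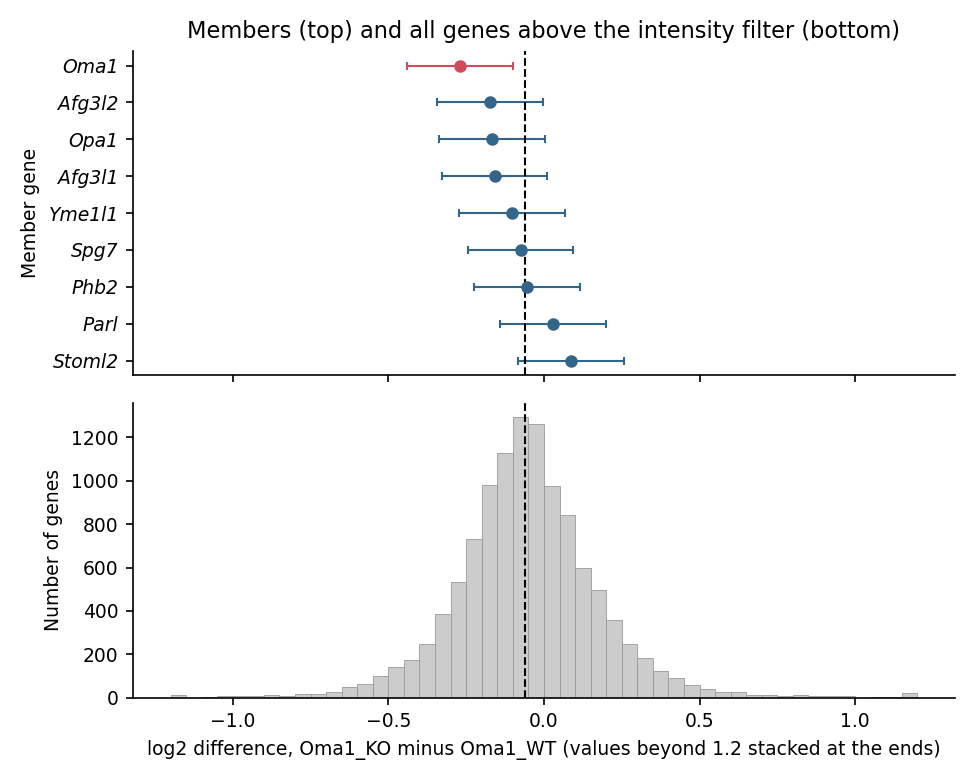
Log2 differences (horizontal axis, Oma1_KO minus Oma1_WT) of the 9 members with bars of 1 SD between probe sets of the same gene (top) and of the 11393 genes above the intensity filter (bottom, number of genes per bin of the histogram). The dashed line is the median of all genes at -0.06. The bar of Oma1, around its value of -0.27, ends short of the dashed line, and the bars of the other 8 members cross it.

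Promoters of 8 of the 9 measured members were read from the RefSeq windows of assembly GRCm38.p6. These windows run from 250 bases before to 50 after a gene's start. Afg3l2 was left out of this reading, so the counts out of 8 say nothing about its promoter. The windows were searched on each strand for CGCANGCG, the core of the site of NRF1, and for CCGGAAG, the core of ETS-family sites such as that of GABPA. NRF1 and GABPA are activators of nuclear genes for mitochondrial proteins. The NRF1 letters were present in 4 of the 8 windows, those of Oma1, Opa1, Afg3l1 and Spg7, against 8.21% of all 32851 windows. The ETS letters were present in the other 4, those of Yme1l1, Phb2, Stoml2 and Parl, against 8.86% of all windows. Of the 9093 genes above the intensity filter that had a window, 19.1% had NRF1 letters and 19.3% ETS letters in at least 1. The GC content of the 8 windows was 52.3% to 65.7%, with a median of 52.7% over all windows. The CG-rich GC box GGGCGG was present in 7 of the 8 windows and in 35.7% of all, and CCAAT in 2 of the 8 and in 37.4% of all. The letters TGATGNAA, a form of the ATF4 element, were present in 0 of the 8 and in 3.97% of all. Shares among genes above the intensity filter were not computed for the GC box, CCAAT and TGATGNAA. The NRF1 and the ETS letters stood together in 0 of the 8 member windows. Of the 9093 genes 4.42% had both, in the same window or in different windows of the gene. These matches are a description of letters and not of binding.

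The 250 bases before the start are printed for Oma1 and Opa1, the protease and its substrate, and for Stoml2, the member with the highest difference. They run 5′ to 3′ on the gene's strand, with NRF1 or ETS letters in capitals. Oma1 is at chr4:103313596-103313845 on the plus strand, Opa1 at chr16:29579084-29579333 on the plus strand and Stoml2 at chr4:43031385-43031634 on the minus strand.
Oma1: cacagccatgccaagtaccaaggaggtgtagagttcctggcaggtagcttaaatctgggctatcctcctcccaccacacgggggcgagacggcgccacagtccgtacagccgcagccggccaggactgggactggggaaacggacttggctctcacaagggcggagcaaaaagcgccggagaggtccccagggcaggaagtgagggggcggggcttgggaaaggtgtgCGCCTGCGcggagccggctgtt
Opa1: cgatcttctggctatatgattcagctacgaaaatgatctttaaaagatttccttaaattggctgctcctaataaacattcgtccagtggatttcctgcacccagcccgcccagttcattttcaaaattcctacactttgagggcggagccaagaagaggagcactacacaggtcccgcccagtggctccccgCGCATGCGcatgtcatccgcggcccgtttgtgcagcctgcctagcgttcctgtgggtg
Stoml2: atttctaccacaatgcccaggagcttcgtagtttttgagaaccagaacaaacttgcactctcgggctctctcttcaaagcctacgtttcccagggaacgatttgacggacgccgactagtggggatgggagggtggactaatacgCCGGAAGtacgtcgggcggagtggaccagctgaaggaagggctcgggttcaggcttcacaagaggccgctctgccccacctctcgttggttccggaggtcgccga
The capitals in the first 2 are NRF1 letters, which begin 22 bases before the start of Oma1 and 58 before that of Opa1, where they form a palindrome that matches on each strand. The capitals in Stoml2 are ETS letters, which begin 105 bases before its start.

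The 4 members with NRF1 letters had differences of -0.27, -0.17, -0.16 and -0.07, and the 4 with ETS letters -0.10, -0.05, 0.03 and 0.09, so the sets overlapped. This split leaves out Afg3l2 and was noticed after the values were known. It was set beside the same 9093 genes. The 1334 genes with NRF1 letters and no ETS letters had a median difference of -0.08, the 1355 with ETS letters and no NRF1 letters -0.07, and the 6002 with neither -0.05. The order seen among the 8 members was thus barely present across these genes.

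The other genes of the pathway were read as lists, which are described by counts and medians beside the median of -0.06 for all genes. Of 13 other substrates and relay genes 12 were measured, of which 8 were lower and 4 higher, with a median of -0.10, and 7 were lower after centring. Pgam5, a mitochondrial phosphatase cut by PARL and OMA1, had the lowest difference, at 393 and 280 (-0.49). Timm17a, a subunit of the inner-membrane import channel and a substrate of YME1L1, read 1232.3 and 941.3 (-0.39) as the mean of 2 probe sets. These were the only 2 of the 12 past 1.2-fold, both lower, against 14.6% of all genes lower by that size. Of the 12, 0 reached 1.5-fold, against 2.97% of all genes in either direction.

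The transcripts of the relay from OMA1 to the stress response differed little. They do not read the cleavage of DELE1 or the activity of HRI. Dele1, the OMA1 substrate that carries the signal, read 371 and 348 (-0.09). Eif2ak1, which encodes the kinase HRI that DELE1 activates, read 555 and 513 (-0.11). Atf4, the transcription factor at the end of the relay, read 240 on each array. The list of targets of the response held 12 genes above the filter, with Atf4 itself counted among them. Of these 7 were lower, 4 higher and 1, Atf4, equal, with a median of -0.11. Phgdh, an enzyme of serine synthesis, read 711 and 304 (-1.22) and Sesn2, a stress-induced regulator of mTORC1, 500 and 324 (-0.62). Asns, which makes asparagine, was on the other side with 1211 and 1598 (0.40). The list was thus split, and 2 of 12 were at least 1.5-fold lower against 1.74% of all genes. With quantile normalisation, loess or centring it was 1 of 12.

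Other PARL substrates were Pink1, the kinase that marks damaged mitochondria, with 907 and 813 (-0.16), Stard7, a phosphatidylcholine carrier, with 395 and 343 (-0.20), and Clpb, a disaggregase, with 346 and 306 (-0.18). Diablo, a pro-apoptotic factor, read 300 and 292 (-0.04), and Ttc19, a complex III factor, 223 and 229 (0.04). The m-AAA substrates Mrpl32, a ribosomal protein, and Smdt1, a calcium uniporter subunit, read 190 and 200 (0.07), and 2916 and 3037 (0.06). Prelid1, a phosphatidic acid carrier cut by YME1L1, read 3690.7 and 3929.1 (0.09) as the mean of 2 probe sets. The substrates of PARL and those of YME1L1 thus lay on both sides of 0, while the 2 of the m-AAA protease were slightly higher, by less than the SD of 0.17 between probe sets.

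Partners and regulators were measured for all 7 genes listed. Of these 6 were lower and 1 higher, with a median of -0.12 that was -0.06 after centring. Ghitm, an inner-membrane protein that restrains AFG3L2, read 1941 and 1537 (-0.34). Maip1, which binds the m-AAA protease, read 115 and 91 (-0.33), and Higd1a, a hypoxia-induced membrane protein, 134.3 and 107.0 (-0.33). These 3 were at least 1.2-fold lower, against 14.6% of all genes. Dnajc19, a prohibitin partner, read 513 and 472 (-0.12), Sirt3, a mitochondrial deacetylase, 185 and 176 (-0.07), and Slc25a46, an outer-membrane fusion factor, 1043 and 1008 (-0.05). Romo1, a small inner-membrane protein needed for OPA1 processing, was higher, at 2381 and 2633 (0.15).

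Of 17 genes of mitochondrial dynamics and cristae above the filter 16 were lower, with a median of -0.08, but only 10 after centring, 10 after quantile normalisation and 11 after loess. The fusion genes of the outer membrane, Mfn1 and Mfn2, read 253 and 235 (-0.11), and 1269 and 1257 (-0.01). Dnm1l, the fission GTPase, read 1193 and 1188 (-0.01). Micos10 and Micos13, subunits of the cristae junction complex, had the lowest differences, at 325 and 262 (-0.31) and 462 and 399 (-0.21), while Chchd6 of that complex read 398 and 397 (0.00) and Chchd3 1639 and 1675 (0.03).

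The 14 other mitochondrial proteases had a median of -0.06, equal to that of all genes. Of these 8 were lower and 6 higher, or 7 and 7 after centring. Clpx and Nln, a matrix unfoldase and a peptidase, read 406 and 318 (-0.35), and 724 and 573 (-0.34), while Htra2, a serine protease of the intermembrane space, read 675 and 744 (0.14) and Mipep, a presequence peptidase, 265 and 308 (0.22). The 4 mitochondrial AAA ATPases that are not proteases had a median of -0.08, with Bcs1l, the complex III assembly factor, at 397 and 357 (-0.15).

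Relatives of the members by protein family lay on different sides. Stoml2 and Phb2 share the SPFH domain with stomatins, flotillins and erlins. Of 6 such genes above the filter 4 were higher under every scaling, with a median of 0.10. Flot1 read 551 and 642 (0.22), Stom 1661 and 1902 (0.20) and Flot2 556 and 631 (0.18), while Erlin1 read 377 and 308 (-0.29) and Stoml1 221 and 198 (-0.16). Of 7 rhomboid relatives of Parl above the filter 6 were lower and 1 equal, with a median of -0.09, and 5 were lower after centring. Rhbdf1, an inactive rhomboid, read 701 and 597 (-0.23). The dynamin relatives of Opa1 gave 3 genes above the filter, with Dnm2 at 1172 and 1229 (0.07), Dnm1 at 402 and 422 (0.07) and Dnm3 at 220 and 202 (-0.12). None of these 16 relatives reached 1.5-fold, a size that 2.97% of all genes reached.

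**Figure D3:**
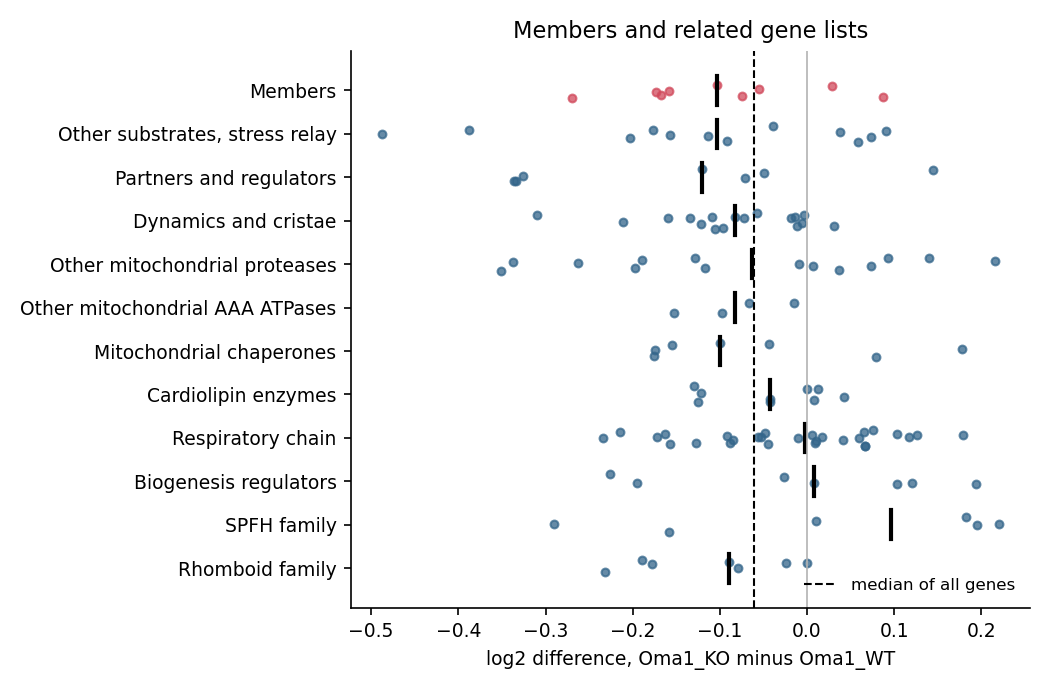
Log2 differences (horizontal axis, Oma1_KO minus Oma1_WT) of the members and of 11 related gene lists, 1 point per gene above the intensity filter, with each list's median as a black bar and the median of all genes (-0.06) as a dashed line. The members' median of -0.10 lies near those of the other substrates (-0.10), partners (-0.12), chaperones (-0.10) and dynamics and cristae genes (-0.08). It lies to the left of the cardiolipin enzymes (-0.04), the respiratory chain (0.00) and the biogenesis regulators (0.01).

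Nuclear genes of the respiratory chain and ATP synthase were read as another list of mitochondrial transcripts, which does not stand for all of them. Of 28 measured, 14 were lower and 14 higher, with a median of 0.00 that was 0.06 after centring. Of these 0 reached 1.2-fold, against 14.6% of all genes lower and 7.13% higher. Cox5b and Ndufv1, subunits of complexes IV and I, had the lowest differences (-0.23 and -0.21), and Sdhb and Uqcrc2, of complexes II and III, the highest (0.18 and 0.13). Of 7 regulators of mitochondrial biogenesis above the filter, 3 were lower and 4 higher, with a median of 0.01. Gabpa read 454 and 388 (-0.23), Nrf1 191 and 192 (0.01) and Esrra, an estrogen-related receptor, 243 and 278 (0.19). Ppargc1a, the coactivator that drives biogenesis, was under the filter on average, at 84.6 and 72.3. The 7 mitochondrial chaperones had a median of -0.10, with Hspa9 at 2528 and 2239 (-0.18) and Grpel2 at 341 and 386 (0.18). The 9 cardiolipin genes had a median of -0.04 that turned to 0.02 after centring, with Ptpmt1 at 559 and 511 (-0.13) and Triap1 at 633 and 652 (0.04).

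The arrays also differed in the markers of cell types. The adipocyte markers Adipoq, Plin1, Fabp4 and Lep read 5255 to 7685 on the 2 arrays. Levels of different genes cannot be compared, so the tissue is taken from the labels. Of 8 adipocyte markers 7 were lower, with a median of -0.12 and a summed intensity of 55177 and 49582. All 6 endothelial markers were lower (median -0.40, summed 7411 and 5670) and 4 of 5 mesothelial markers (-0.73, 1760 and 1179). The other mesothelial marker, Wt1, was higher, at 178 and 214 (0.26). All 7 macrophage markers (0.28, 21471 and 24998) and all 6 measured hepatocyte markers (0.98, 3275 and 7818) were higher. Past 1.5-fold were the endothelial receptor gene Robo4 (544 and 347, -0.65), the mesothelial genes Upk3b (773 and 455, -0.76), Lrrn4 (395 and 238, -0.73) and Krt19 (186 and 112, -0.73), and the macrophage Fc receptor gene Fcgr1 (308 and 503, 0.71). So were 5 of the 6 genes for hepatocyte plasma proteins, Apoa1 (253 and 904, 1.83), Alb (1692 and 4523, 1.42), Apoa2 (345 and 715, 1.05), Ttr (381 and 717, 0.91) and Ahsg (300 and 531, 0.82). The 3 brown adipocyte markers above the filter were spread, with Cidea, a lipid droplet gene, at 84 and 213 (1.33), Cox8b at 926 and 1079 (0.22) and Cox7a1, like Cox8b a cytochrome oxidase subunit, at 267 and 260 (-0.04). Under the filter were Ucp1, the uncoupling protein, at 38 and 55 (0.52), Elovl3 at 51 and 46 (-0.15) and Dio2 at 45 on each array. The part of these differences in the members' values was not tested, and in a bulk sample fewer cells of a type and less RNA per cell cannot be told apart.

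**Figure D4:**
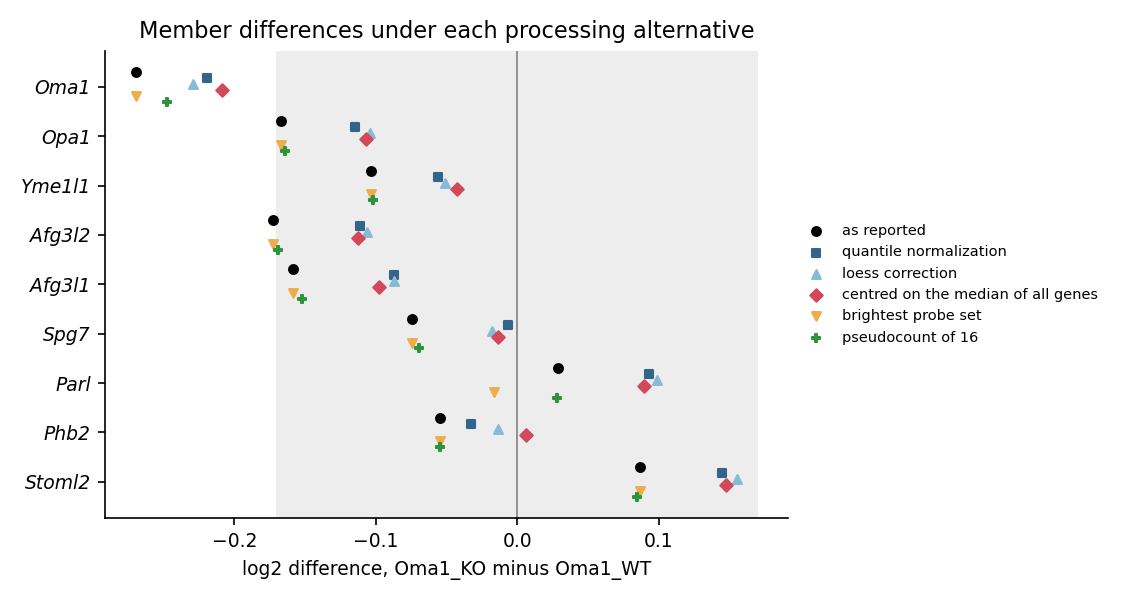
Log2 differences (horizontal axis, Oma1_KO minus Oma1_WT) of the 9 members under the values as reported and 5 alternatives, with a grey band of 1 SD between probe sets (0.17) on each side of 0. Oma1 lies outside the band under all 6 settings, at -0.27 to -0.21, Afg3l2 at its edge (-0.17) as reported, Stoml2 stays to the right of 0, and Parl and Phb2 are the members that change side.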

How the data were processed

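Gene expression in white adipose tissue was measured on 1 array labelled Oma1_WT and 1 labelled Oma1_KO. The authors deposited 1 linear intensity per probe set, in whole numbers, with a median of 83 on each array. The software, background correction, probe summary and scaling behind them are not given in the sources read here. Of 35512 probe sets, 21789 had 1 gene symbol in GEO's platform annotation, 1621 several and 12102 none. Only the first were used. Gene identifiers of all 9 measured members matched RefSeq (GRCm38.p6) with the same symbol. Values were log2-transformed after a pseudocount of 1, which understates changes of dim genes, and probe sets of a gene were averaged. Genes were kept if their mean reached the median of all probe sets. No test was possible with 1 array per group, so sizes of 1.2-fold, 1.5-fold and 2-fold were used. The procedure was tested on simulated data with planted changes of 1.5-fold and more. These were larger than any difference of a member, so the simulation does not bear on differences of that size.

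The members and lists were chosen with earlier results of these data known. Named were the members, the measured substrates, relay genes, partners and regulators, and of other lists up to 2 genes at each end and those past 1.5-fold. Mfn1, Mfn2, Dnm1l, Atf4, Nrf1, Ppargc1a, Flot2, Ucp1, Elovl3, Dio2, Plin1, Fabp4 and Lep were added after their values were seen. B cell and skeletal muscle markers, read as well, had medians of -0.81 (2 genes above the filter, with Cd79a at 163 and 75, -1.11) and 0.05 (3 genes). A planned comparison of protein sequences was not made. Alternatives were quantile normalisation, loess with a span of 0.3, centring on the median of all genes, the brightest probe set, a pseudocount of 16 and other filters. Python 3.11.15, numpy 2.4.6, pandas 2.3.3, statsmodels 0.14.6 and matplotlib 3.10.9 were used.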

Additional observations from a re-analysis of the deposited data

How the results depend on the processing

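No paired analysis was possible because each group was 1 array, and for the same reason no array could be left out. Each member's difference moved by less than the SD of 0.17 between probe sets under every alternative run, and signs changed for Parl (-0.02 with the brightest probe set) and Phb2 (0.01 after centring). The number of members at least 1.2-fold lower was 1, and it was 0 with quantile normalisation, loess, centring, a pseudocount of 16 and a stricter filter at the upper quartile (an intensity of 326, which left 7 members). Among all genes, centring gave 1095 at least 1.2-fold lower in place of 1663, 1244 at least 1.2-fold higher in place of 812, and 18 at least 2-fold lower in place of 28, a count that was 17 with a pseudocount of 16. With no filter the counts of higher genes were 2062 past 1.2-fold and 219 past 1.5-fold, in place of 812 and 140. Under the stricter filter, 732 and 283 genes were at least 1.2-fold lower and higher, 81 and 52 at least 1.5-fold, and 7 and 11 at least 2-fold. The lower counts come with fewer genes, 5785 in place of 11393. That filter moved the median of the stress response targets from -0.11 to -0.35, of the biogenesis regulators from 0.01 to -0.19 and of the B cell markers from -0.81 to -0.51, the last being -0.52 with no filter. Other list medians moved by less than 0.17, though that of the dynamin relatives turned from 0.07 to -0.10 with no filter. The median of the biogenesis regulators turned to -0.03 with no filter. No detection calls were used, so signal over background is unknown for dim probe sets.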
